A study of Mus musculus with 12 samples.

Results

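Irradiated mouse lung taken 14 days after irradiation was compared with irradiated mouse lung taken 8 days after it, in 3 RNA-seq libraries of each time, which are 6 of the 12 libraries of the series. Both groups were irradiated, so the contrast follows the tissue from the earlier to the later time without taking a difference from the unirradiated group. Libraries of irradiated lung at 11 d (3) and of lung that received no irradiation (3) served as an intermediate time and as a reference level. They also entered the filter, the scaling and the estimate of spread behind the calls. The tissue of the irradiated groups was dissected from the irradiated areas alone, per the series description. The sources used here do not give dose, field, strain, age, sex or the region of the unirradiated lung. The replicates are numbered and are not said to be separate animals, so each p-value reflects only how far these libraries differ among themselves, possibly for technical reasons.

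Ionising radiation breaks DNA in the cells it passes through, activates p53, and is known in the lung for the loss of capillary endothelium and alveolar epithelium and for an inflammatory phase that precedes scarring. Macrophages clear the dying cells. A phagocyte that has taken up membranes must degrade them in the lysosome, export the cholesterol through ABC transporters and apolipoprotein E, and at high sterol the SREBP2 pathway of cholesterol synthesis is switched down. Gpnmb, Trem2 and Spp1 are widely used markers of such lipid-laden macrophages.

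The libraries held 20792968 to 22660158 counts at 8 d and 22615862 to 25524425 at 14 d. Lung identity was plain in all 6, with Sftpc, the surfactant protein C gene of alveolar type 2 cells, between 10800 and 16700 CPM (counts scaled to library size). The first principal component of the 6 libraries carried 47.1% of the variance and placed 8 d between -41.1 and -30.4 and 14 d between 29.5 and 40.9. The second carried 25.6% and set 8 d replicate 2 (-39.6) and 14 d replicate 3 (-30.2) apart from the others. These libraries also had the highest level of short against long transcripts of their groups, 0.463 and 0.188 on the log2 scale against -0.275 to -0.0287 in the other 4. Without both, 1104 genes were called higher and 1033 lower, of which 1006 and 868 were among the calls of all 6 libraries. Markers of heart and pulmonary vein muscle summed to 280 CPM in 8 d replicate 3 and to 40 to 63.5 CPM in the other 5 libraries.

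A broad change separated the times. Of 16484 genes tested, 2536 (15.4%) were called at an adjusted p below 0.05 in edgeR's quasi-likelihood test, 1335 higher at 14 d (8.10%) and 1201 lower (7.29%). The shares higher and lower are the reference for the list counts below. The lists were chosen with earlier results of these data known, so setting their counts beside these shares is not a test. Among the rises, 566 were at least 2-fold (3.43% of genes tested), as were 371 of the falls (2.25%). The 3 libraries of each time did not overlap in 30.0% of genes, 15.1% higher and 14.9% lower. Among the largest changes there were 101 genes at least 4-fold higher and 33 at least 4-fold lower. The median log2 change of all genes was -0.0228, with quartiles at -0.272 and 0.231. At 11 d the mean of 2338 of the 2536 called genes (92.2%) lay between the means of the outer times. These genes were selected for a difference between those times, which makes a mean in between likely. The share for all genes tested was not computed, so 92.2% does not measure how steady the change was. With library size as the only scaling the count became 1116 higher and 1457 lower, so the majority turned from rises (52.6% of calls) to falls (43.4% rises). Leaving out 14 d replicate 1 gave 1392 calls and leaving out 8 d replicate 3 gave 1600.

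**Figure D1:**
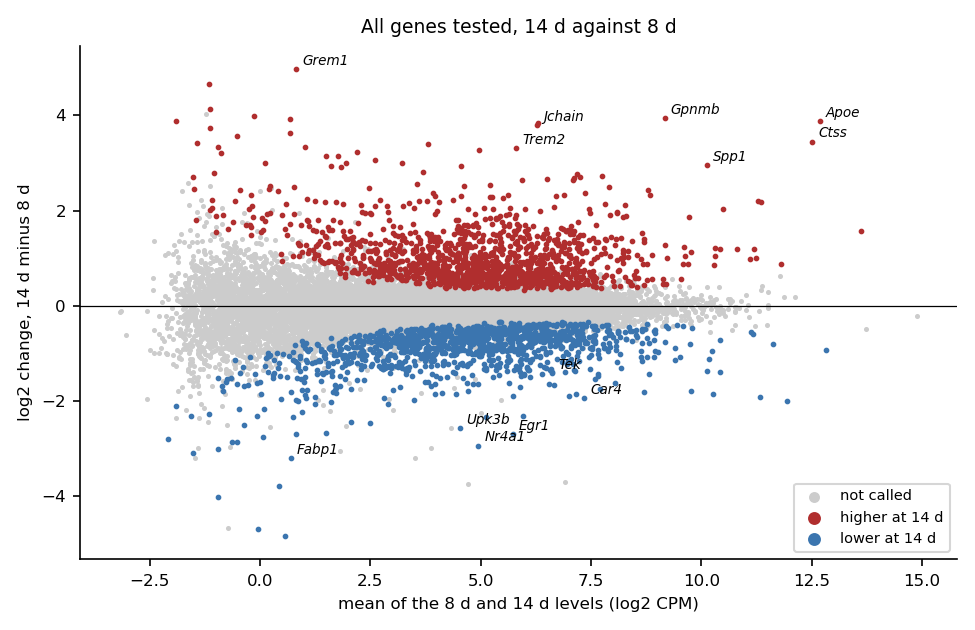
Log2 change from 8 d to 14 d of each of the 16484 genes tested (vertical axis) against its mean level over both times (horizontal axis, log2 CPM), with called genes in red (1335 higher) and blue (1201 lower). The highest-expressed genes with large rises are Apoe and Ctss, and falls of over 4-fold are fewer than rises of that size.

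The 12 largest rises among called genes with a mean of 5 CPM or more and no overlap between the times were those of Gpnmb, Apoe, H2-Q2, Jchain, Ctss, H2-M2, Trem2, Hpse, Stac2, Stra6l, Spp1 and Tlr8. H2-Q2, of a cluster with near-identical sequence, stood far higher in 14 d replicate 2 than in the other 14 d libraries. DESeq2 gave it no adjusted p. Gpnmb, a glycoprotein of phagosomes and lysosomes (mm10 chromosome 6, 49036546 to 49070929, plus strand), stood at 90.0, 65.2 and 54.5 CPM in 8 d replicates 1, 2 and 3 and at 964, 1280 and 996 CPM in the 14 d replicates in the same order. All 14 d libraries lay far above all 8 d libraries, and the level rose 15.5-fold (log2 change 3.95, SE 0.32, adjusted p = 2.8e-05). Apoe, the apolipoprotein that accepts cholesterol leaving the cell (chromosome 7, 19696109 to 19699188, minus strand), read 974, 796 and 735 CPM at 8 d and 13900, 10700 and 12300 CPM at 14 d. Its rise of 14.7-fold (log2 change 3.88, SE 0.30) started from a level close to that of unirradiated lung, 627 to 692 CPM. Ctss, the cysteine protease cathepsin S (chromosome 3, 95526786 to 95556403, plus strand), went from 975, 1160 and 807 CPM to 11300, 8970 and 12000 CPM. The 8 d and 14 d libraries were far apart, with a change of 10.9-fold (log2 3.45, SE 0.31).

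Trem2, the lipid-sensing receptor of macrophages, rose 9.97-fold, from between 6.92 and 11.8 CPM to between 92.5 and 114 CPM. Spp1, which encodes the secreted glycoprotein osteopontin, read 243, 348 and 171 CPM at 8 d and 1610, 2040 and 2280 CPM at 14 d (log2 change 2.96, SE 0.35). Hpse, the heparanase that cuts heparan sulphate, was at 5.42 to 6.58 CPM in the 8 d libraries and at 55.2 to 57.4 CPM in the 14 d libraries, which hardly differed from each other. Tlr8, an endosomal RNA sensor, rose by 2.94 on the log2 scale (SE 0.31), Stra6l, a retinol transporter gene, by 3.01 (SE 0.33), and the adaptor gene Stac2 by 3.06 (SE 0.46). The plot of the largest changes by library shows 11 d between the outer times for Gpnmb, Apoe, Ctss and Trem2, with 11 d replicate 1 the highest of its group in each.

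**Figure D2:**
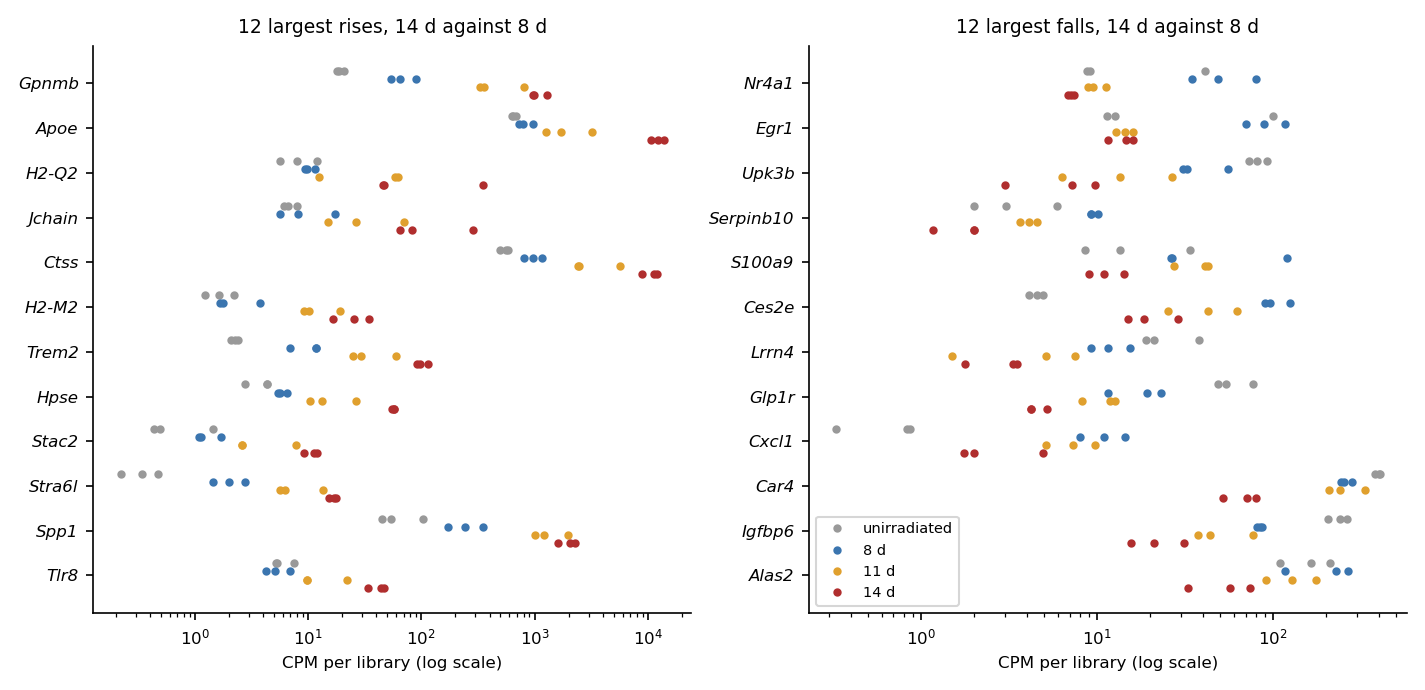
CPM of the 12 largest rises (left) and the 12 largest falls (right) among named genes, 1 point per library on a log axis, unirradiated in grey, 8 d in blue, 11 d in orange and 14 d in red. Blue and red points do not overlap for any gene shown, and for Nr4a1 and Egr1 the 11 d points already lie among or next to the 14 d points.

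Of 18 markers of lipid-associated macrophages 17 rose and none fell, where 8.10% of all genes rose, with a median log2 change of 1.60 against -0.0228 for all genes. The exception was Cd36, a fatty acid and lipoprotein scavenger, at -0.23. Plin2, the coat protein of lipid droplets, rose from 92.3 to 145 CPM up to 304 to 348 CPM (log2 change 1.40, SE 0.19), and Fabp5, a fatty acid carrier, from 306 to 459 CPM up to 1170 to 1580 CPM (log2 1.87, SE 0.29). The summed level of the list was 3560 to 4750 CPM at 8 d, where it overlapped the 3840 to 4370 CPM of unirradiated lung, 7950 to 12800 CPM at 11 d and 13300 to 15300 CPM at 14 d. In bulk tissue more cells of a type and more RNA per cell cannot be told apart, nor can fewer cells and less RNA.

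Lysosomal genes moved as a block. Of 30 genes for lysosomal hydrolases and membrane proteins 27 rose and none fell, with a median log2 change of 1.27 and all 30 values above 0. Ctsb, Ctsd, Ctsl, Cd63 and Lipa stand in the lipid-associated macrophage list too, so the counts of these lists are not independent. Ctsd, the aspartic protease cathepsin D (chromosome 7, 142375911 to 142388038, minus strand), read 1140, 863 and 670 CPM at 8 d and 4070, 4580 and 3720 CPM at 14 d, with no overlap (log2 change 2.21, SE 0.21). Psap, the precursor of the saposins that present sphingolipids to their hydrolases, rose 4.56-fold, from 789 to 1130 CPM up to 3490 to 4840 CPM. Lipa, the acid lipase that frees cholesterol from its esters, rose by 1.69 on the log2 scale (SE 0.17), from 59.0 to 66.7 CPM up to 179 to 229 CPM. Summed over the list, the 3 libraries of 14 d lay at 31200 to 31800 CPM and those of 8 d at 7310 to 8710 CPM. The 3 that did not pass were Ctsk (0.49), Mcoln1 (0.42) and Npc2 (0.42), all log2. The vacuolar ATPase, the pump that acidifies the lysosome, followed in part, with 6 of 17 subunits higher and none lower (median 0.35). Among them was Atp6v0d2, a membrane-sector subunit with a restricted range of tissues, which rose from 89.4 to 129 CPM up to 491 to 504 CPM (log2 2.12, SE 0.17), while Atp6v1b2 rose by 0.82 (SE 0.14) and Atp6v1c1 by 0.79 (SE 0.16).

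Promoters of the lysosomal genes are shown because members of the list moved together. RefSeq windows on GRCm38.p6, from 250 bases before the transcript start to 50 after it, were at hand for 12227 of the tested genes and 22 of the 30 lysosomal genes. TCACGTG, which contains the E-box CACGTG that TFEB and related factors are known to bind, was read on both strands, as were all motifs here. It was in 6.26% of all windows and in 6 of the 22 (27.3%), those of Ctsa, Ctsd, Lgmn, Glb1, Lamp1 and Mcoln1, and in 4 of 11 windows of vacuolar ATPase genes. Among genes called at least 2-fold higher it was in 27 of 422 windows (6.4%) and among those called at least 2-fold lower in 2.03%. It was also in 3 of 13 windows (23.1%) of cholesterol synthesis genes, a list that was lower at 14 d. TCATGTG, a related E-box form, was in 2.76% of all windows, in 30 of 422 windows of genes called at least 2-fold higher (7.11%), in 2.03% of those called at least 2-fold lower, and in 4 of the 22, those of Ctsa, Ctss, Grn and Scarb2. The windows of Ctsd (chr7:142387798-142388077, minus strand) and Ctss (chr3:95526536-95526815, plus strand) are printed 5′ to 3′ from 250 bases before the start to 30 after it, with the motifs and their reverse complements in capitals. In Ctsd the motif reads on both strands at 99 bases before the start, where its 2 readings overlap, and again at 245 bases before it. In Ctss it begins 18 bases after the start. A match is a description of letters and not a bound site.
Ctsd: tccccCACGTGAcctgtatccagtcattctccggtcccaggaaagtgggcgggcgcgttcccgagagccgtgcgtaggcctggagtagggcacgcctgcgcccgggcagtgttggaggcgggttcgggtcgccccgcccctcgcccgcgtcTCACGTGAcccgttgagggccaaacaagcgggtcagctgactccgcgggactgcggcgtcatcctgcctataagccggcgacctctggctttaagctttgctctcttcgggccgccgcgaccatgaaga
Ctss: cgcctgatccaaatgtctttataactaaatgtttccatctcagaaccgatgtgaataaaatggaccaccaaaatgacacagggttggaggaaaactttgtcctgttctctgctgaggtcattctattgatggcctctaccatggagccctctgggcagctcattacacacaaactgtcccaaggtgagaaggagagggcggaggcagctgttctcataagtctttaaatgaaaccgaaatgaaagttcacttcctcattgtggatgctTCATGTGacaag

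Cholesterol genes split by role. Of 16 genes of cholesterol efflux and its control 8 rose and 1 fell (median log2 change 0.67). Abca1, the transporter that loads cholesterol on apolipoproteins, stood at 107, 62.1 and 81.5 CPM at 8 d and at 409, 414 and 283 CPM at 14 d (log2 2.14, SE 0.29). Abcg1, which exports sterol to mature lipoproteins, rose by 1.5 (SE 0.21), and Apoc2, the apolipoprotein that activates lipoprotein lipase, by 2.82 (SE 0.41), from 2.62 to 3.83 CPM up to 20.0 to 26.2 CPM. Apoc2 and Apoc4 lie in 1 cluster with Apoe, and the sources used here do not say how reads were assigned there. The gene that fell was Ch25h, cholesterol 25-hydroxylase (-0.95). Nr1h3 and Nr1h2, the sterol-sensing LXR receptors, read 0.08 and -0.29 and were not called.

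Genes of cholesterol synthesis were lower, with 14 of 20 called lower and none higher, where 7.29% of all genes were lower (median log2 change -0.69, all 20 values below 0). Without 14 d replicate 1 the number lower was 9. Fdps, farnesyl diphosphate synthase, read 72.5, 74.6 and 60.7 CPM at 8 d and 28.8, 25.3 and 26.4 CPM at 14 d, 2.58-fold lower (log2 change -1.37, SE 0.18, adjusted p = 0.0003). Idi1, isopentenyl diphosphate isomerase, was 2.53-fold lower, with 75.8 to 119 CPM at 8 d and 33.5 to 44.5 CPM at 14 d. Sqle, squalene epoxidase, changed by -1.23 (SE 0.20). Hmgcs1 changed by -0.64 (SE 0.20, adjusted p = 0.046), with overlapping groups. That call was lost under 9 of the alternatives, at adjusted p up to 0.19. Unirradiated lung held 41.7 to 62.2 CPM of Fdps, above the 3 libraries of 14 d and overlapping those of 8 d. Fatty acid synthesis and storage had 1 of 21 higher (Plin2) and 2 lower (Elovl1 and Fads2).

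Windows of 13 of the 20 synthesis genes were at hand. CCAAT, the box bound by NF-Y, was in all 13 and in 42.0% of all windows. Among genes called at least 2-fold lower it was in 36.6% of windows. CACCCCAC, the inner letters of a sterol regulatory element, was in 1 of the 13, that of Hmgcs1, and in 3.84% of all windows, and the longer form TCACCCCAC was in 0.695%. The plain E-box CACGTG was in 4 of the 13 against 10.8%, and TTTGAA in none against 15.0%. The Hmgcs1 window (chr13:119690101-119690380, plus strand) holds CCAAT 4 times on the reverse strand and CACCCCAC at 136 bases before the start. The Idi1 window (chr13:8885356-8885635, plus strand) holds CCAAT at 45 and 14 bases before it, again reversed. Both are printed as above, with these motifs in capitals.
Hmgcs1: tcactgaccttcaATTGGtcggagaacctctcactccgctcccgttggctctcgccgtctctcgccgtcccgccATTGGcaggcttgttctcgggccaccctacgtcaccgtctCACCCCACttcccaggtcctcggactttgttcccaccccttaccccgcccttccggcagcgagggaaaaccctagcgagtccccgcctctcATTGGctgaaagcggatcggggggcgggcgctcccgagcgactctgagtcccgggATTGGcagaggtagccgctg
Idi1: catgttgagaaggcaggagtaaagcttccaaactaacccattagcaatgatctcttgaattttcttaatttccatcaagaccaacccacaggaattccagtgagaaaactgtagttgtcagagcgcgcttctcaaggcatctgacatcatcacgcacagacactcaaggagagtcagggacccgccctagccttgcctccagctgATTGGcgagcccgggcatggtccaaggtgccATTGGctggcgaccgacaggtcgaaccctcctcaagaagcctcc

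Of 18 interstitial macrophage markers 11 rose and none fell (median log2 change 1.11). The genes of C1q, the complement component that tags dying cells, led them. C1qb read 56.8, 63.7 and 47.2 CPM at 8 d and 401, 286 and 430 CPM at 14 d (6.66-fold higher), and C1qa and C1qc changed by 2.63 (SE 0.21) and 2.71 (SE 0.25). Adgre1, which encodes the F4/80 antigen, rose by 2.09 (SE 0.24), from 34.2 to 42.7 CPM up to 145 to 184 CPM. Pf4, Folr2, Cd163 and Stab1, markers of resident perivascular macrophages, lay between -0.20 and 0.27 and were not called.

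Alveolar macrophage markers were divided, with 8 of 18 higher and 4 lower (median 0.35). Marco, a scavenger receptor, stood at 150, 121 and 96.2 CPM at 8 d and at 45.5, 42.8 and 47.8 CPM at 14 d, 2.70-fold lower. That call was lost without 8 d replicate 1, 14 d replicate 1 or 14 d replicate 2, at adjusted p up to 0.063. Marco was highest at 11 d, with a mean of 246 CPM, and its mean without irradiation was 31.2 CPM. Fabp1, a fatty acid carrier, went from 2.34 to 3.60 CPM down to 0.135 to 0.501 CPM (log2 -3.19, SE 0.38), against a mean of 17.4 CPM without irradiation. The lipid droplet gene Cidec (-1.73, SE 0.36) and the keratin gene Krt79 (-1.81, SE 0.41) were lower as well. Fabp4 (1.44), Itgax (1.22), Pparg (0.98) and Bhlhe41 (1.39, SE 0.22) were higher. Ear2 belongs to a family of near-identical genes whose reads cannot be told apart with certainty, and it read 55.9 to 80.1 CPM at 8 d and 166 to 231 CPM at 14 d.

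Of 11 Fc receptor genes 7 rose and 2 fell (median 1.37), where 8.10% of all genes rose and 7.29% fell. Fcgr2b, the inhibitory receptor for immunoglobulin G, rose 6.41-fold, from 30.9 to 46.7 CPM up to 192 to 272 CPM, and the activating Fcgr3 by 2.50 on the log2 scale (SE 0.28). Fcer2a and Fcmr, receptors found on B cells, were the 2 lower, and the Fcer2a call was lost without 8 d replicate 1 or 3 or any 14 d library (adjusted p up to 0.076). C3ar1, the receptor of the complement fragment C3a, rose by 2.66 (SE 0.34), C5ar1 by 1.13 (SE 0.18) and properdin, Cfp, by 1.19 (SE 0.19), in a list of 19 complement genes with 3 higher and 2 lower (median -0.09). Of 19 scavenger and efferocytosis receptors 8 rose and 2 fell. The TAM receptors Axl, with 95.0 to 133 CPM at 8 d and 400 to 489 CPM at 14 d, and Mertk, with 34.6 to 44.9 and 102 to 126 CPM, were 3.95-fold and 2.76-fold higher. Their ligand Gas6 was lower (-0.69), and the third receptor, Tyro3, was not called (-0.54).

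Cytokine and chemokine genes moved both ways, with 10 of 28 lower and 7 higher (median -0.24). Il6, which encodes the cytokine interleukin 6, read 2.90, 6.58 and 5.25 CPM at 8 d and 0.630, 0.830 and 0.835 CPM at 14 d, with no overlap (6.37-fold lower, log2 -2.67, SE 0.43, adjusted p = 0.00097). Cxcl1, a neutrophil chemokine, was 3.84-fold lower, with 8.01 to 14.5 CPM at 8 d and 1.75 to 4.92 CPM at 14 d, and Cxcl2 and Cxcl3 changed by -2.31 (SE 0.55) and -2.86 (SE 0.66). Both of these calls were lost without 8 d replicate 2 and 14 d replicate 3 together (adjusted p = 0.076 and 0.07). Without 14 d replicate 1 the number lower in the list was 4, without 14 d replicate 2 it was 5, and without 8 d replicate 3 the number higher was 4. Among the risers were Ccl8, a monocyte and eosinophil chemokine, from 4.03 to 10.4 CPM up to 35.7 to 44.3 CPM (log2 2.30, SE 0.29), Ccl6 (1.04, SE 0.20), Ccl9, Cxcl16, Cxcl13, Il1a and Tgfb1. The Cxcl13 call was lost without 8 d replicate 1 or 3 or 14 d replicate 2 or 3 (adjusted p up to 0.13). Cxcl13 was highest at 11 d, with a mean of 29.4 CPM against 5.35 at 8 d and 12.4 at 14 d.

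Immediate early genes, rapid-response genes that also react to tissue handling, were lower in 11 of 16 and higher in none (median -1.16), and in 7 without 14 d replicate 1. Nr4a1, a nuclear receptor that is also required by patrolling monocytes (chromosome 15, 101254269 to 101274795, plus strand), stood at 34.5, 48.7 and 80.2 CPM at 8 d and at 6.84, 7.13 and 7.43 CPM at 14 d, 7.64-fold lower. The 8 d libraries were spread over a wide range and the 14 d libraries were close together. Cyr61, a matricellular YAP target, changed by -1.86 (SE 0.34) and Dusp1, a phosphatase of MAP kinases, by -1.50 (SE 0.23). Differences in the time between death and freezing cannot be read from these data, and their part in the result was not tested.

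Monocytes and neutrophils gave mixed lists. Patrolling monocyte markers were lower in 6 of 11 and higher in none (median -0.61), including Treml4 (-1.18, SE 0.19), Cd300e (-1.93, SE 0.32) and Ace, which endothelium also makes. Classical monocyte markers had 2 of 14 higher, Ccr2 (1.08, SE 0.26), the receptor for Ccl2, and F13a1 (1.34, SE 0.28), and 2 lower, Ifitm6 and Hp. The Ccr2 call was lost without 8 d replicate 3 (adjusted p = 0.06). The Ifitm6 call was lost without 8 d replicate 2 and 14 d replicate 3 together (adjusted p = 0.069). Among all genes 8.10% were higher and 7.29% lower. Of 14 neutrophil markers tested 3 were lower and 1, Mmp8, higher. S100a9, a calcium-binding protein of neutrophils, read 26.4, 120 and 26.8 CPM at 8 d and 8.98 to 14.3 CPM at 14 d. The second 8 d library stood far above the others, and the call was lost without it or without 14 d replicate 1, at adjusted p up to 0.063. Ngp, Camp, Elane, Mpo and Mrgpra2b, further neutrophil genes, were below the filter on low counts.

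Of 12 genes of MHC class II presentation 9 rose and none fell (median 1.08). Cd74, the invariant chain, rose from 1200 to 1700 CPM up to 2830 to 4110 CPM (log2 1.19, SE 0.20) and H2-Ab1, a class II beta chain, from 492 to 589 CPM up to 990 to 1500 CPM (1.13, SE 0.19). Of 13 class I genes 4 rose, H2-K1, H2-D1, B2m and Nlrc5, and the peptide transporters and immunoproteasome subunits did not pass (-0.17 to 0.38). The type I interferon-stimulated list had 1 of 24 lower and none higher (median -0.13). Ifit3 was that gene, at 301 to 381 CPM at 8 d and 163 to 238 CPM at 14 d, and its call was lost without 8 d replicate 1, 14 d replicate 1 or 14 d replicate 2 (adjusted p up to 0.073). Mx1, an antiviral GTPase, read 21 to 31.3 and 23.6 to 30.3 CPM, so its groups overlapped. Of 20 interferon-gamma response genes 6 rose and none fell (median 0.16). Cxcl9, a T cell chemokine, went from 29.9 to 34.6 CPM up to 43.1 to 126 CPM (1.45, SE 0.28), Ubd, a ubiquitin-like protein, changed by 3.16 (SE 0.52), and the guanylate-binding proteins Gbp2 to Gbp6 lay between -0.14 and 0.62 without a call. Of 18 dendritic cell genes 4 rose, among them Flt3 (0.86), the growth factor receptor of these cells, and 2 rose without 8 d replicate 3.

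Among lymphocytes, regulatory and checkpoint genes rose. Of 17 tested genes 12 were higher and none lower (median 1.13, all 17 values above 0). Foxp3, the transcription factor of regulatory T cells (chromosome X, 7573644 to 7595245, plus strand), read 9.56, 7.21 and 7.29 CPM at 8 d and 24.6, 19.1 and 18.5 CPM at 14 d, 2.59-fold higher without overlap. Ctla4, an inhibitory receptor, rose 4.36-fold, from 1.64 to 2.07 CPM up to 5.58 to 9.31 CPM, and Pdcd1, which encodes PD-1, by 2.13 (SE 0.34). Havcr2, which encodes TIM-3 and is expressed by myeloid cells as well, rose by 1.51 (SE 0.18), and the PD-1 ligand gene Cd274 by 0.81 (SE 0.16). General T cell markers had 4 of 24 higher (Cd4, Cd28, Icos and Il7r), none lower and a median of 0.43. The Cd4 call was lost without 8 d replicate 2 or 3 or 14 d replicate 1 (adjusted p up to 0.23). It was also lost with library size as the only scaling and with the compared groups alone. The count for the list was 2 without 8 d replicate 3 or 14 d replicate 1, and 8 without 14 d replicate 2. Cd3e, Cd3d and Cd3g, chains of the receptor complex, had log2 changes of 0.45, 0.47 and 0.59 and did not pass. NK and cytotoxic markers were lower in 4 of 18 and higher in none (median -0.49), with Gzma, a granzyme, at 34.2 to 59.4 CPM at 8 d and 8.34 to 24.2 CPM at 14 d (-1.65, SE 0.30), Prf1, perforin, at -1.38 (SE 0.27) and the NK receptor Ncr1 at -1.21 (SE 0.24). Without 14 d replicate 3 the number lower was 7.

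B cell markers were lower in 10 of 16 (median -0.78), and in 5 without 8 d replicate 1, 8 d replicate 3 or 14 d replicate 2 and 6 without 14 d replicate 3. Cd79a, a signalling chain of the B cell receptor, read 25.8, 29.5 and 20.0 CPM at 8 d and 9.80, 7.39 and 9.06 CPM at 14 d (-1.52, SE 0.28). Cd22 went against its list (chromosome 7, 30865402 to 30880342, minus strand), at 21.8, 15.9 and 17.7 CPM at 8 d and 76.3, 74.5 and 52.8 CPM at 14 d. It was 3.68-fold higher without overlap (log2 1.88, SE 0.21, adjusted p = 0.00012). Jchain, the joining chain of secreted antibody, went from 5.62, 17.2 and 8.21 CPM up to 82.3, 64.4 and 285 CPM (log2 3.80, SE 0.64), with the third 14 d library far above the others. It was the only plasma cell gene of 12 tested that was called. Mzb1, Irf4 and Eaf2 read 0.74, 0.61 and 0.72.

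Mast cell proteases rose from low levels. Of 11 mast cell and basophil genes tested 6 rose and 2 fell (Gata2 and Kit, which other cells of the lung make as well). Cpa3, a carboxypeptidase, went from 3.05, 4.82 and 2.38 CPM to 17.9, 13.4 and 28.6 CPM, 5.85-fold higher. Cma1, a chymase, rose from 1.75 to 2.97 CPM up to 6.71 to 11.5 CPM (1.96, SE 0.35). Tpsb2, a tryptase, was at 0.0469 to 0.450 CPM at 8 d, 13 counts over the 3 libraries, and at 2.92 to 3.17 CPM at 14 d. Mcpt4, another chymase, was at 0 to 0.586 CPM and then at 2.87 to 3.21 CPM. Il1rl1, the receptor for interleukin 33, rose from 2.16 to 3.58 CPM up to 11.1 to 12.5 CPM (1.98, SE 0.24). Type 2 genes were higher in 4 of 14, among them Arg1, arginase, from 6.79 to 17.9 CPM up to 36.3 to 47.0 CPM (1.70, SE 0.31), and Il17rb (1.86, SE 0.43). Il4, Il5, Il13 and Epx were below the filter. The summed mast cell list, which holds Kit and Gata2 as well, overlapped at 153 to 171 CPM at 8 d and 158 to 161 CPM at 14 d. The tryptase genes are near-identical copies, and their split is uncertain.

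Capillary and other endothelial genes were lower throughout the list. Of 22 pan-endothelial markers 20 fell and none rose (median -1.09, all 22 values below 0), and 18 fell without 14 d replicate 1. Tek, the angiopoietin receptor Tie2 (chromosome 4, 94739289 to 94874976, plus strand), read 126, 154 and 146 CPM at 8 d and 45.8, 59.6 and 54.0 CPM at 14 d. It was 2.67-fold lower without overlap (log2 -1.42, SE 0.16), from a level of 498 to 543 CPM in unirradiated lung. Pecam1, the adhesion molecule CD31, stood at 915 to 958 CPM and then at 367 to 459 CPM (2.20-fold lower), and Cldn5, the endothelial tight-junction claudin, changed by -1.48 (SE 0.22). The summed list fell from 4540 to 5000 CPM at 8 d to 2240 to 2550 CPM at 14 d, against 9270 to 9670 CPM without irradiation.

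By subtype, aerocyte markers, those of the capillary cells specialised for gas exchange, were lower in 8 of 12 (median -1.0) and general capillary markers in 6 of 12 with 1 higher (median -0.62). Car4, carbonic anhydrase 4 of aerocytes (chromosome 11, 84957786 to 84966044, plus strand), read 252, 282 and 242 CPM at 8 d and 52.2, 79.8 and 70.7 CPM at 14 d, 3.82-fold lower. Its 11 d level of 208 to 330 CPM was close to that at 8 d. Plvap, a diaphragm protein of fenestrated and general capillaries, changed by -1.37 (SE 0.21). The gene that rose was Lpl, lipoprotein lipase (0.74, SE 0.15), which macrophages also make and which stands in the lipid-associated list too. Arterial and venous markers were lower in 3 of 13, Efnb2, Hey1 and Ephb4, and in 5 without 14 d replicate 2. Lymphatic markers were lower in 3 of 9, led by Lyve1 (-1.48, SE 0.25), and in 1 without 14 d replicate 1.

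Of 20 genes of VEGF, Notch and angiopoietin signalling 11 were lower and none higher (median -0.73), and 7 without 14 d replicate 1. The ligand Dll4, a Notch ligand of endothelium, stood at 25 to 28.8 CPM at 8 d and 6.16 to 9.62 CPM at 14 d (3.55-fold lower), and its sister Dll1 and the growth factor gene Vegfa changed by -1.64 and -0.78. The receptor Kdr, which binds VEGF-A, read 422, 320 and 452 CPM and then 119, 167 and 103 CPM (3.07-fold lower), and Notch4 changed by -1.0. The Notch targets Hes1, Hey1 and Nrarp changed by -0.77, -0.81 and -1.46. Angpt1 and Angpt2, the ligands of Tek, read -0.31 and -0.44 and did not pass. Among BMP genes the ligand Bmp6 fell from 34.5 to 42.0 CPM to 11.6 to 14.4 CPM (-1.62, SE 0.18), and the targets Id1 and Id3 changed by -1.17 and -1.04. In the whole list of 28 Wnt, FGF and BMP genes 8 were lower and 4 higher, 5 lower and 1 higher without 14 d replicate 1. Leaving out 8 d replicate 2 gave 2 higher, and leaving out 8 d replicate 3 or 14 d replicate 3 gave 1. The flow-induced factor Klf2 changed by -1.62 (SE 0.21).

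**Figure D3:**
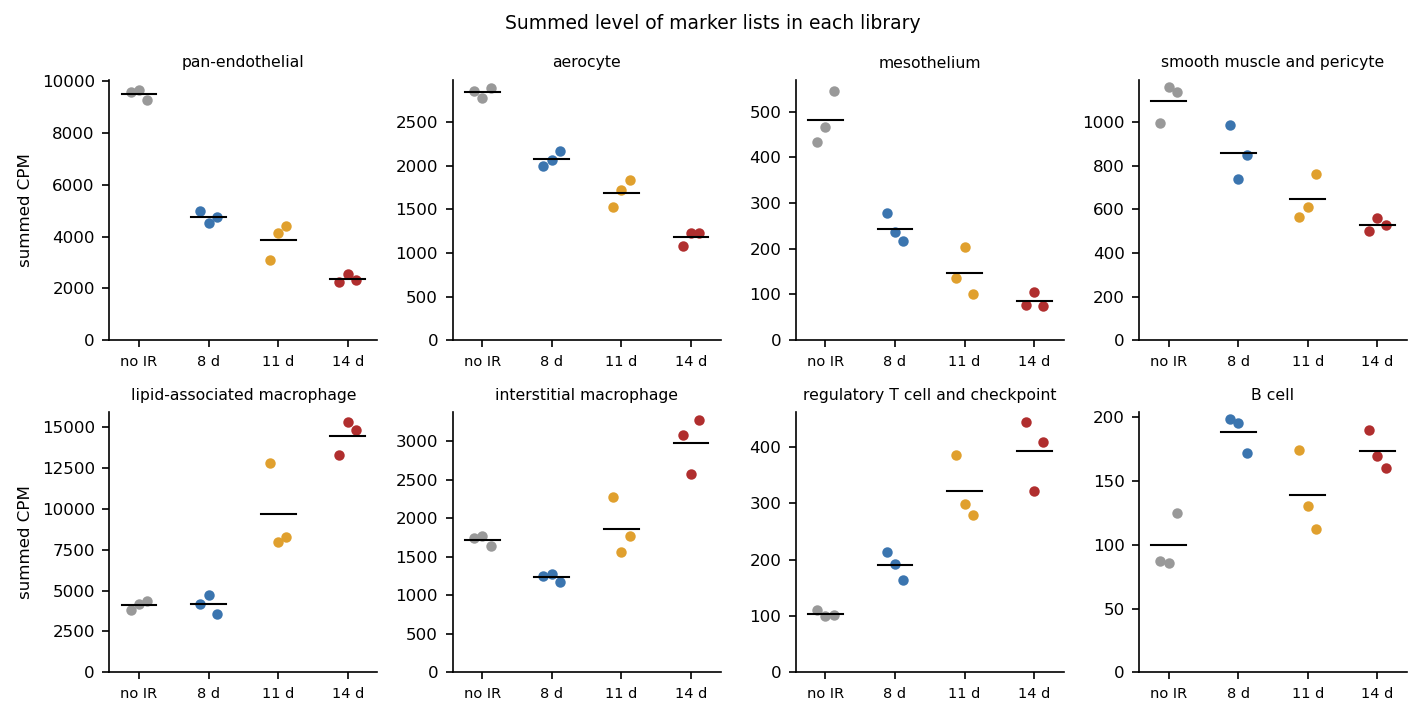
Summed CPM of 8 marker lists in each library, 1 point per library with the group mean as a line, axes from 0. Endothelial, aerocyte, mesothelial and smooth muscle sums are lower at 14 d than at 8 d without overlap. Macrophage and checkpoint sums are higher, and the B cell sum overlaps (172 to 198 CPM at 8 d and 160 to 190 CPM at 14 d). The B cell sum includes Cd22, which rose, while 10 of the 16 B cell markers were called lower.

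Red cell genes were lower over the same interval. Of 11 haemoglobin and red cell genes 10 fell (median -1.82), and their sum went from 15700, 11600 and 17300 CPM at 8 d to 5190, 2510 and 4180 CPM at 14 d. Haemoglobin genes took 1.17% to 1.79% of counts at 8 d and 0.253% to 0.497% at 14 d. Haemoglobin thus moved in the same direction as the vessel, B cell, NK and patrolling monocyte genes, and its part in those results was not tested. Taking these genes and Rn45s out of the library size left 1332 genes higher and 1197 lower.

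All 9 tested mesothelial markers fell (median -1.59), against 7.29% of all genes. Upk3b, a uroplakin of the lung surface (chromosome 5, 136038496 to 136046487, plus strand), read 55.2, 32.3 and 30.6 CPM at 8 d and 7.24, 9.73 and 3.0 CPM at 14 d, 5.89-fold lower, against 72.7 to 92.7 CPM in unirradiated lung. Lrrn4 and Nkain4 changed by -2.07 (SE 0.44) and -1.84 (SE 0.21). The amount of pleura on each piece of tissue is not recorded in the labels.

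The number of stromal genes called depended on single libraries. Smooth muscle and pericyte markers were lower in 9 of 16 (median -0.55), in 5 without 8 d replicate 1 or 8 d replicate 3, and in 3 without 14 d replicate 1. Tagln, an actin-binding protein of smooth muscle, read 100 to 121 CPM at 8 d and 52.6 to 69.8 CPM at 14 d (-0.88, SE 0.16). Alveolar fibroblast markers were lower in 5 of 14, in 2 without 8 d replicate 3 and in 1 without 14 d replicate 1, with the sodium channel gene Scn7a at 348 to 404 and then 154 to 186 CPM (-1.18, SE 0.14). Adventitial fibroblast markers were lower in 3 of 12 and in 1 without 14 d replicate 1.

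Activated myofibroblast genes had 6 of 16 higher and none lower (median 0.43), and 3 without 8 d replicate 3, 14 d replicate 1 or 14 d replicate 2. The summed list overlapped, at 845 to 1030 CPM at 8 d and 826 to 1020 CPM at 14 d. Unirradiated lung held 1050 to 1180 CPM. Grem1, a secreted BMP antagonist (chromosome 2, 113746164 to 113758646, minus strand), was at 0.0469, 0.135 and 0.125 CPM at 8 d, 7 counts over the 3 libraries, and at 4.63, 2.19 and 3.46 CPM at 14 d (log2 4.98, SE 0.68, adjusted p = 0.00033). At 11 d it was at 0.845 CPM in replicate 1 and at 0.0937 and 0.104 CPM in the others. Fst, follistatin, an activin antagonist, rose from 2.06 to 3.29 CPM up to 7.81 to 15.7 CPM (2.10, SE 0.31), and Ltbp2, a latent TGF-beta binding protein, by 0.92 (SE 0.18). Cthrc1 and Postn, markers of fibrosis, read -0.35 and -0.49 without a call.

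Collagen genes were for the most part not called. Of 15 fibrillar and beaded collagens 2 rose (Col5a3 and Col15a1) and none fell. The Col5a3 call was lost without 8 d replicate 1 or 2 or 14 d replicate 1 or 2, at adjusted p up to 0.13. Col1a1 read 340, 167 and 299 CPM at 8 d and 297, 323 and 205 CPM at 14 d, with full overlap (log2 0.03, SE 0.24). None of 19 basement membrane genes was called in edgeR's quasi-likelihood test, with values from -0.63 to 0.28. Elastic fibre genes were lower in 4 of 14 and higher in 1 (Fbln2), and lower in 2 without 8 d replicate 3 and in 1 without 14 d replicate 1. Of 19 matrix protease and inhibitor genes 5 were higher and 1 lower, with 3 higher without 8 d replicate 1, 8 d replicate 3, 14 d replicate 1 or 14 d replicate 3. Mmp12, the macrophage elastase, went from 26.6 to 49.2 CPM up to 75.2 to 113 CPM (1.51, SE 0.22) and Mmp14, a membrane collagenase, from 107 to 164 CPM up to 293 to 335 CPM (1.11, SE 0.18). Mmp9, a gelatinase of neutrophils, changed by -1.57 (SE 0.36).

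TGF-beta genes had 5 of 18 higher and 3 lower, and 2 and 0 without 14 d replicate 1. Without 8 d replicate 3 they had 2 and 1, and without 8 d replicate 2 or 14 d replicate 2 the number higher was 3. The ligand Tgfb1 changed by 0.43 and the type 1 receptor Tgfbr1 by 1.60 (SE 0.18), from 59.8 to 65.8 CPM up to 156 to 217 CPM. The target Tgfbi changed by 0.98 (SE 0.20). Igf1, a growth factor of macrophages and stroma, rose from 86.4 to 89.9 CPM up to 149 to 196 CPM (1.01, SE 0.19), and Igfbp6 was lower (-1.89, SE 0.26), in a list of 13 with 2 higher and 3 lower, 5 lower without 8 d replicate 2 and 1 without 14 d replicate 1. Coagulation genes had 3 of 18 higher, the factors F7, F10 and F13a1, and 2 lower. Of all genes 8.10% were higher and 7.29% lower. The F10 call was lost without 8 d replicate 3 or 14 d replicate 1 (adjusted p up to 0.072).

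Among epithelial genes, alveolar type 2 markers had 1 of 18 higher (Fabp5, which macrophages share) and 2 lower (Chil1 and Sftpb), with a median of -0.11. The Sftpb call was lost without 8 d replicate 1 or 3 or 14 d replicate 1 or 3, at adjusted p up to 0.1. It was also lost with the compared groups alone and with a transcript length trend removed. Sftpc read 16700, 16500 and 14400 CPM at 8 d and 10800, 10900 and 12500 CPM at 14 d, without overlap, and did not pass (log2 -0.48, SE 0.20, adjusted p = 0.12). Chil1, a chitinase-like protein, went from 1300 to 2020 CPM down to 810 to 846 CPM (-0.95, SE 0.18). Alveolar type 1 markers were lower in 9 of 16 and higher in none (median -0.41), in 3 without 14 d replicate 1, 4 without 8 d replicate 3 and 5 without 14 d replicate 3. Hopx, a homeodomain protein of type 1 cells, read 184 to 259 and then 135 to 158 CPM (-0.70, SE 0.15). Ager, the receptor RAGE, changed by -0.55 (SE 0.18), a call lost without 8 d replicate 1 or 3 or any 14 d library at adjusted p up to 0.15. The Ager call was also lost with no filter, a replicate block, the compared groups alone or a transcript length trend removed.

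Transitional epithelium gave 2 of 16 higher and 2 lower, where 8.10% of all genes were higher and 7.29% lower. Cldn4, a tight-junction claudin of injured alveoli, rose from 4.40, 3.83 and 3.38 CPM to 17.6, 10.4 and 9.14 CPM (3.19-fold), and Lgals3, the other riser, is also a macrophage gene. Krt8, the keratin most used for this state, read 0.09. Of 14 club cell markers 5 were lower, and 2 without 8 d replicate 3 or 14 d replicate 1. Cbr2, carbonyl reductase, was at 1670 to 2190 CPM at 8 d and 639 to 932 CPM at 14 d (-1.39, SE 0.26). Ciliated cell markers had 1 of 18 lower (Tppp3) and basal cell markers 1 of 6 (Krt14, lost without 8 d replicate 1 or 3 or any 14 d library, adjusted p up to 0.21).

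Genes induced by p53 were lower in part. Of 34 targets 11 were lower and 1, Sesn1, higher (median -0.29), with 7 lower without 8 d replicate 3 and 6 without 14 d replicate 1. The Sesn1 call was lost without 8 d replicate 1 or 3 or 14 d replicate 3 (adjusted p up to 0.11). Cdkn1a, the inhibitor p21 (chromosome 17, 29090976 to 29100727, plus strand), read 284, 294 and 282 CPM at 8 d and 156, 170 and 143 CPM at 14 d, 1.83-fold lower (adjusted p = 0.0027). All 14 d libraries were still above the 19.9 to 29.7 CPM of unirradiated lung. Gdf15, a stress cytokine, was 2.41-fold lower, from 12.7 to 22.7 CPM down to 7.20 to 8.30 CPM, and Btg2, an antiproliferative gene, changed by -1.11 (SE 0.17). Bax, Fas and Zmat3 read -0.23, -0.19 and -0.13 without a call. The integrated stress response had 3 of 17 lower and none higher.

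Mitosis genes were called higher in 4 of 26 and lower in none (median 0.50, 24 values above 0). The groups did not overlap in 17 of the 26, all higher at 14 d, where 15.1% of all genes were so. DESeq2 called 9, and the compared groups alone and the fit without 8 d replicate 1 gave 6 each. The count was 1 without 14 d replicate 1, 2 without 8 d replicate 3, 14 d replicate 2 or 14 d replicate 3, and 1 with library size as the only scaling. Mki67, the proliferation antigen, read 84.3, 59.9 and 64.4 CPM at 8 d and 158, 143 and 135 CPM at 14 d (2.09-fold, log2 1.06, SE 0.21). Top2a, the topoisomerase of dividing cells, read 0.52 (SE 0.18, adjusted p = 0.062). DNA replication genes had 1 of 26 higher (Cdc45) and repair genes 3 of 25 (Chek2, Brca1 and Parp1), of which 1 was called without 14 d replicate 1. The Cdc45 call was lost without 8 d replicate 3 or 14 d replicate 1 or 3 (adjusted p up to 0.083). The share of all genes called higher was 8.10%.

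Among metabolic genes, xenobiotic enzymes were lower in 9 of 22 and higher in none (median -0.65), and in 5 without 8 d replicate 3 or 14 d replicate 1. Ces2e, a carboxylesterase, read 89.8, 124 and 95.9 CPM at 8 d and 15.0, 18.6 and 29.0 CPM at 14 d, 4.94-fold lower, though unirradiated lung held only 4.12 to 4.97 CPM. Fmo1, a flavin monooxygenase, changed by -1.24 (SE 0.22). Respiratory chain subunits had 1 of 23 lower (Ndufv1, lost without 14 d replicate 2, adjusted p up to 0.058) and none higher. Glycolysis and hypoxia genes were higher in 5 of 20, and in 3 without 8 d replicate 3 or 14 d replicate 1. Iron and haem genes were divided, with 5 of 17 higher and 2 lower, the transferrin receptor gene Tfrc (-0.55) and haptoglobin, Hp (-0.76), and a median of -0.07. Among the higher were the ferritin light chain Ftl1 at 1220 to 1730 and then 2880 to 3020 CPM (0.98, SE 0.18) and the phagosomal iron exporter Slc11a1 at 14.0 to 17.0 and then 50.2 to 57.0 CPM (1.83, SE 0.23). Of 18 NRF2 and glutathione genes 1 rose, the haem oxygenase Hmox1, and 1 fell, Gsta4, whose call was lost without 8 d replicate 3 or 14 d replicate 1 (adjusted p up to 0.072). Hmox1 was highest at 11 d, with a mean of 178 CPM against 76.6 at 8 d and 126 at 14 d.

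Hormone and clock genes differed between the times as well. Fkbp5, a chaperone induced by glucocorticoids (chromosome 17, 28399094 to 28517527, minus strand), read 44.6, 27.6 and 25.7 CPM at 8 d and 136, 123 and 130 CPM at 14 d, 3.99-fold higher. Sgk1, a kinase of the same response, rose by 1.15 (SE 0.17), in a list of 13 with 4 higher and 2 lower, and with 2 higher without 8 d replicate 3. Clock genes were lower in 5 of 15 and higher in 1, Bhlhe41 (median -0.27). The number lower was 3 without 8 d replicate 1 or 14 d replicate 3 and 2 without 8 d replicate 3 or 14 d replicate 1. Dbp, a clock-controlled transcription factor, went from 93.7 to 106 CPM down to 33.1 to 42.2 CPM (-1.35, SE 0.27). The labels do not record the time of day of sampling.

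**Figure D4:**
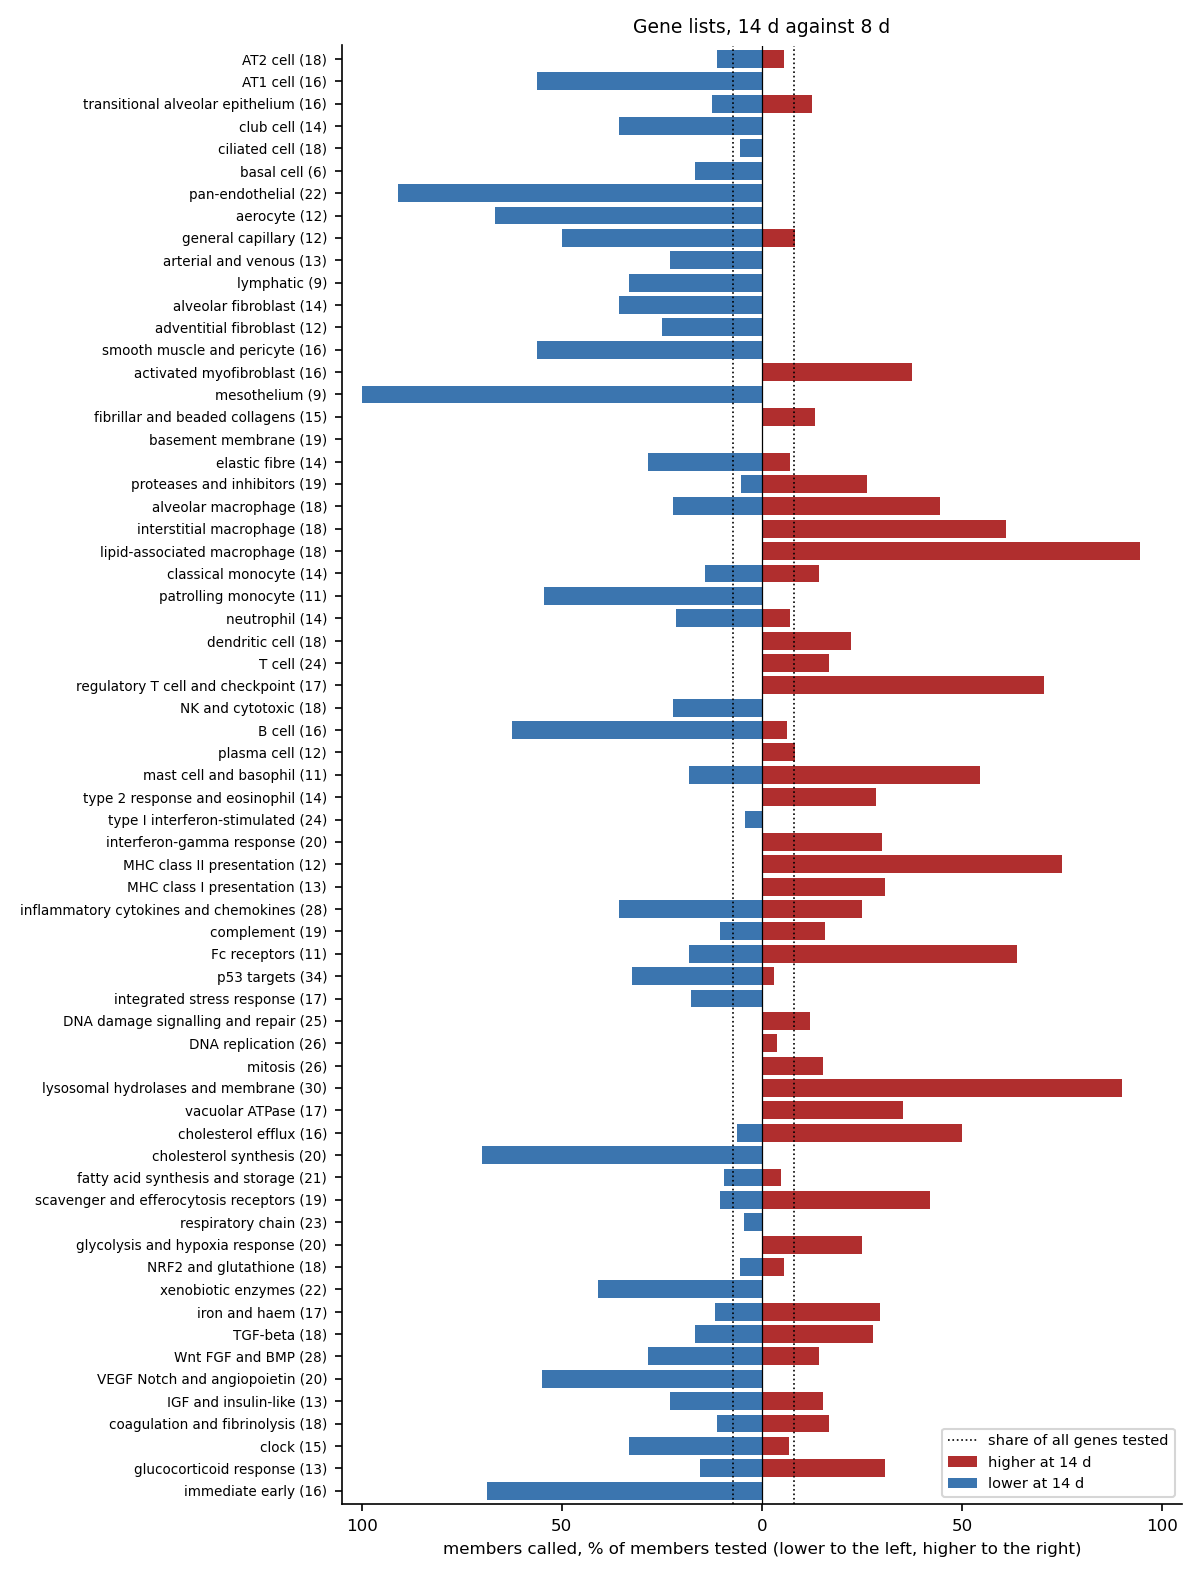
Share of the tested members of each gene list that was called lower (blue, to the left) or higher (red, to the right) at 14 d against 8 d, with the number tested in brackets and dotted lines at the shares of all genes, 7.29% lower and 8.10% higher. Mesothelial, pan-endothelial, cholesterol synthesis and immediate early lists reach far to the left. Lipid-associated macrophage, lysosomal, MHC class II and checkpoint lists reach far to the right.

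Few genes were called off the line between the outer times. A contrast of 11 d against the midpoint of 8 d and 14 d on the log2 scale called 17 genes above and 3 below, 0.121% of genes tested. At an unadjusted p below 0.05 there were 1373, and DESeq2 called 70 above and 22 below. Some list sums were also highest at 11 d. The type 2 list stood at 614 to 737 CPM, against 334 to 398 at 8 d and 406 to 460 at 14 d. The transitional epithelium list stood at 3380 to 3650 CPM, against 2180 to 2820 and 2380 to 2510 CPM. Much of that sum was Lcn2, which also stands in the iron list. Its means were 963 CPM at 8 d, 1590 CPM at 11 d and 768 CPM at 14 d. The type I interferon list stood at 2130 to 3350 CPM, against 1750 to 2060 and 1590 to 1950 CPM. Other sums, such as the lysosomal one at 13500 to 22200 CPM, lay between the outer times. Irg1, the enzyme of macrophages that makes itaconate, read 12.2, 10.7 and 6.17 CPM at 8 d, 50.1, 35.4 and 26.0 CPM at 11 d and 5.58, 2.45 and 5.18 CPM at 14 d, so the 11 d libraries stood above all others. Its departure from the midpoint was 2.51 (log2). Clec4e, a receptor for mycobacterial and damaged-cell lipids, departed by 2.31, and the acute-phase gene Saa3 by 2.13, at 179 to 265 CPM at 11 d against 28.9 to 95.0 and 34.9 to 62.4 CPM. The chemokine Ccl2 departed by 1.51, at 38.5 to 64.9 CPM at 11 d, 18.7 to 35.7 CPM at 8 d and 9.32 to 17.3 CPM at 14 d. The 3 genes below the line, Ear2, Ear3 and Ear12, are near-identical copies. The number called ranged from 2, without 11 d replicate 2, to 28 over the fits that left out 1 library.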

How the data were processed

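RNA was taken from mouse lung, and 1.3 µg of total RNA extracted with Trizol went into NEBNext Ultra II Directional libraries, per the labels' protocols. The authors deposited raw read counts per gene symbol for each library. Reads were aligned with TopHat to mm10, per the submitters' processing notes, while the sources used here do not name the counting program, its annotation or its strand setting. Rows sharing a symbol were summed, which left 23238 symbols, and 0 columns of other samples were present.

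All 12 libraries entered 1 fit in edgeR 4.0.16 (R 4.3.3) with TMM scaling, filterByExpr by group (10 counts) and the quasi-likelihood F test. The filter left 16484 genes, and calls are at a Benjamini-Hochberg adjusted p below 0.05. SE is the log2 change divided by the root of F. Adjusted p-values in the text without a named tool come from this fit. CPM is on TMM-scaled library sizes, taken over the counts of these genes. Sums of a list add the CPM of its tested members. Genes were named as the 12 largest changes each way (mean 5 CPM or more, no overlap), as up to 3 members of each list with the lowest p, as the 5 farthest from the 11 d midpoint each way, as reference genes, and as members added after their values were seen. Unnamed loci, haemoglobin genes and antigen receptor segments were left out, and some list members are counted but not reported by name. The members and gene lists were chosen with earlier results of these data known. Alternatives used limma 3.58.1, DESeq2 1.42.0, other scalings and filters, a replicate block, the compared groups alone and leaving out each library. The fit without 8 d replicate 2 and 14 d replicate 3 together and the removal of a transcript length trend were chosen after seeing the data. On simulated counts for 14 d against 8 d with 200 of 16373 genes changed, 13.4% of 1.5-fold, 56.7% of 2-fold and 96.9% of 4-fold changes were recovered, and 7 of 117 calls were false. The simulated counts followed the fitted model, changed far fewer genes than were called here and held no outlying libraries. They therefore do not give the recovery or false-call rates of the real data. Depth limits precision for counts of a few reads.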

Additional observations from a re-analysis of the deposited data

How the results depend on the processing

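Median-of-ratios scaling, a stricter filter or none, limma-voom, and library sizes without Rn45s and haemoglobin genes each kept the number of genes called between 14 d and 8 d within 1.5 times that reported, in both directions. DESeq2 called 1658 higher and 1472 lower, and a fit of the compared groups alone 1008 and 851. Library size alone gave 1116 higher and 1457 lower. The fits that each left out 1 library called 1392 to 2548 genes, 797 to 1258 higher and 595 to 1290 lower, with 1392 (797 and 595) without 14 d replicate 1 and 1600 (843 and 757) without 8 d replicate 3. The contrast of 11 d with the midpoint gave 92 calls in DESeq2 (70 above, 22 below), 1 below in the compared groups alone, and 2 to 28 in the leave-one-out fits (2 to 23 above, 0 to 5 below). The cause was not tested.

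Counts over lists moved by more than 1.5 times in other fits as well. In the compared groups alone the number lower was 5 for alveolar type 1 cells, 5 for smooth muscle, 7 for p53 targets and 1 for adventitial fibroblasts, and the number higher was 2 for T cells and 2 for TGF-beta. Library size alone gave 5 arterial and venous genes lower, 2 T cell genes higher and 3 TGF-beta genes higher. DESeq2 called 5 adventitial genes lower, and 7 dendritic cell genes were higher with the length trend taken out. Without 8 d replicate 2 and 14 d replicate 3 the number lower was 3 for alveolar type 1, 5 for adventitial, 5 for cytokine and 3 for clock genes, and 2 Wnt, FGF and BMP genes were higher. Some calls lost without single libraries were lost in other fits too. In the compared groups alone these were Krt14, Sesn1 and Ndufv1. The replicate block lost Krt14 and Col5a3, and library size alone lost Col5a3. Krt14 was also lost in limma-voom and with the length trend taken out.

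Same-numbered libraries of 8 d and 14 d had correlations of deviations of 0.287, -0.353 and -0.0804. Differently numbered ones ranged from -0.436 to 0.462. Values this few and this spread cannot settle whether the numbers pair the samples. With the replicate block 1330 genes were called higher and 1146 lower, and the midpoint contrast gave 8 above and 0 below (8 in all). No named gene that was called changed sign under any alternative run. Uncalled log2 changes did. Over the fits that left out libraries, Col1a1 ranged from -0.22 to 0.24, Il1rn from -0.10 to 0.18, Saa3 from -0.47 to 0.59, Mx1 from -0.32 to 0.04, Adipoq from -2.53 to 0.25 and Cfd from -3.72 to 0.74. Adipoq and Cfd were above 0 only without 8 d replicate 3. Col1a1 became -0.02 and Il1rn -0.01 with library size alone, and Saa3 became 0.00 in limma-voom. Without Rn45s and haemoglobin genes 4 red cell genes were left to call lower. Genes of a few counts at 8 d, such as Grem1, are limited by depth.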

Other observations

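Class I genes of the H2-Q cluster, which share near-identical sequence, stood apart in 1 library. H2-Q1 read 119, 532 and 104 CPM in 14 d replicates 1, 2 and 3. H2-Q2 read 46.3, 347 and 46.9 CPM in the same order, and H2-Q4 219, 456 and 185 CPM.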
